A study of Mus musculus with 6 samples.

Results

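Mallory bodies (Mallory-Denk bodies) are clumps of keratin, ubiquitin and the adaptor p62 that form in the cytoplasm of injured hepatocytes. The 9 genes described here encode proteins of these inclusions and of the wider intermediate filament response: the keratins Krt8, Krt18, Krt7, Krt19, Krt20 and Krt23, vimentin (Vim), p62 (Sqstm1) and the ubiquitin-like protein FAT10 (Ubd). They were chosen by gene symbol, with their levels on both diets and the difference between the diets already known, so that difference is given as a description and not as a test. All 9 symbols matched 1 row each among 21899 gene rows, and 8 of the 9 passed the low-count filter that left 12599 genes; Krt20 did not. The series holds liver polyA RNA from wild-type (WT) C57BL6J mice fed for 6 weeks on a methionine/choline-sufficient diet (MCS, 3 libraries) or one deficient in both nutrients (MCD, 3 libraries). All groups share the wild-type genotype, and diet is the only labelled difference. The labels give neither the sex nor the age of the mice, nor whether each replicate came from an animal of its own. The spread between replicates may therefore be technical. RNA levels do not show whether inclusions were present.

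Keratins are paired filament proteins: a type II keratin such as Krt8 or Krt7 polymerises with a type I keratin such as Krt18, Krt19, Krt20 or Krt23. The adult hepatocyte is a simple epithelial cell whose keratin network is built of Krt8 and Krt18 alone, while bile duct cells add Krt7 and Krt19. An excess of Krt8 over Krt18 is a long-known feature of livers that form Mallory bodies. Sqstm1 binds ubiquitinated proteins and hands them to autophagy, and Ubd, induced by interferon gamma and TNF, tags proteins for the proteasome. The MCD diet removes the precursors of phosphatidylcholine and S-adenosylmethionine and is used to produce steatohepatitis in mice.

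The promoter windows of 4 genes that carry most of the results are shown, each running 5′ to 3′ on the gene's own strand from 250 bases before to 50 bases after the RefSeq start (build GRCm38.p6, not the GRCm39 build named in the submitters' processing notes). Of the 9 genes, 8 had a window and Krt19 did not. Krt8 (chr15:102004293-102004592, minus strand) and Krt18 (chr15:102027966-102028265, plus strand) are neighbours on chromosome 15, with no other protein-coding gene between them in RefSeq. Sqstm1 lies on chromosome 11 (chr11:50210771-50211070, minus strand) and Ubd on chromosome 17 (chr17:37193642-37193941, plus strand). Capitals mark matches on either strand to 5 motifs: the antioxidant response core TGACNNNGC, the AP-1 site TGANTCA, an interferon response core GAAANNGAA, the TATA box TATAA and the GC box GGGCGG.
Krt8: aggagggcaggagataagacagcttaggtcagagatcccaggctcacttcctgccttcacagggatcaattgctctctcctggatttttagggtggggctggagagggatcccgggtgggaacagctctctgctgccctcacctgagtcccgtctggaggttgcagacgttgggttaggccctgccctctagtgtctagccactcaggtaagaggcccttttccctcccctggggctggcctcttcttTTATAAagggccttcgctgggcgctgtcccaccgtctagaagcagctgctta
Krt18: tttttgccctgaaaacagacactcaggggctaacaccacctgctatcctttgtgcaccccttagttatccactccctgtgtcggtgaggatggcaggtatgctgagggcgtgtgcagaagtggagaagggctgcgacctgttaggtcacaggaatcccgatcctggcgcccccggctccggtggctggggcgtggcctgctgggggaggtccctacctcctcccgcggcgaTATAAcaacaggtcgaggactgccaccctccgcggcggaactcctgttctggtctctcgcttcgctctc
Sqstm1: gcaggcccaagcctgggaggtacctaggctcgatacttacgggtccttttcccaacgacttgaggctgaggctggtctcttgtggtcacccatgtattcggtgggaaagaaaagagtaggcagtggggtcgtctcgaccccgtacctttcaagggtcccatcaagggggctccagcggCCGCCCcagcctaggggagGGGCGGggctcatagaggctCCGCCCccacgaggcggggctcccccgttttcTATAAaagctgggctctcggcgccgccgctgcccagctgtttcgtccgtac
Ubd: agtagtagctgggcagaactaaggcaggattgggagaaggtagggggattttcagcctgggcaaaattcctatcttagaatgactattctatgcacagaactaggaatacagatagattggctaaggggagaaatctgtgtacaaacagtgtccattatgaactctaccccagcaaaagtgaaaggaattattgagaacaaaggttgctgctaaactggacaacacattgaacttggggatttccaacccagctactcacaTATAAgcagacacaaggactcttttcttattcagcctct

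The TATA letters were found in 6 of the 8 windows, including all 4 shown, against 24.9% of 32851 RefSeq windows. Counted in bases from the RefSeq start, the matches began at −2 and −1 in Krt8, −19 in Krt18, −1 in Sqstm1 and 11 in Ubd. In Krt8 the 2 matches overlap, because the site reads the same on both strands. GC boxes were found in 2 of the 8, Krt7 and Sqstm1 (35.7% of all windows). The antioxidant core was found in 1 of the 8, Krt20 (12.4% of all windows). No window of the 8 held the AP-1 letters (7.81% of all windows) or the interferon core (8.56%). The GC content was 58% for Krt8, 61.3% for Krt18, 63.3% for Sqstm1 and 42.3% for Ubd. These matches are letters in a short window and say nothing of whether a factor binds there or elsewhere.

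Total counts ran from 16615469 to 21322771 per library. Levels below are CPM, counts scaled to the library total after TMM normalisation, unless TPM, which also allows for transcript length, is named. A difference is the log2 fold change (MCD relative to MCS) with its SE, fitted by quasi-likelihood in edgeR over all 12599 genes, n = 3 per diet. Replicate 3 of both diets stood apart from the others on the second principal component. Hepatocyte markers matched the labelled tissue, with albumin (Alb) at a mean of 59230 CPM on MCS and 57710 CPM on MCD. Pancreatic markers summed to at most 0.633 CPM in any library. Of 6 intestinal markers, Cdx1 and Cdx2 had 0 counts in all libraries and Muc13 was too low to test. Fabp2 fell from a mean of 77.4 to 52.4 CPM, Lgals4 did not pass, and villin (Vil1) rose from 0, 0 and 1 counts on MCS to 15, 14 and 43 counts on MCD (edgeR adjusted p = 0.00820).

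In the fit, 5 of the genes were called higher on MCD (adjusted p under 0.05): Krt8, Krt18, Krt7, Vim and Ubd. That is 5 of 8 tested members, where 14.8% of all tested genes were called up and 9.97% down. In 7 of the 8, all but Krt19, every MCD library lay above every MCS library, as in 23.9% of all tested genes (in 21.3% every MCD library lay below). The values of this contrast were known when the genes were chosen, so nothing is read from these counts. Calls of single members given below describe the fit in the same way and are not tests. Leaving out any of MCS replicates 1 and 2 and MCD replicate 1 left 3 members called, and with library size alone 8 were.

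**Figure D1:**
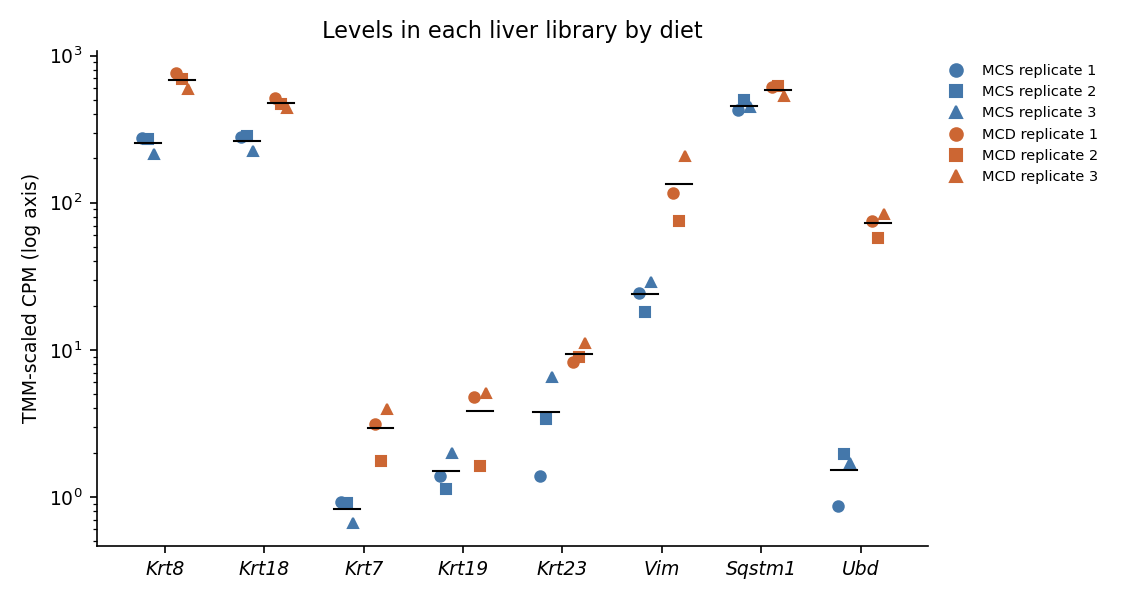
CPM of 8 genes in each library on a log axis; points are libraries (blue MCS, orange MCD, symbol by replicate) and black bars are means over 3 libraries. Only Krt19 overlaps between the diets, and Ubd shows the widest gap, 57.4 to 84.4 CPM against 0.863 to 1.96 CPM.

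On the per-length scale (mean TPM ± SD, n = 3) the MCS order was Sqstm1 at 296 ± 20.7, Krt18 at 249 ± 21.3 and Krt8 at 176 ± 16.0, with library ranges that did not overlap. Vim followed at 15.2 ± 4.36, then Krt23 at 3.35 ± 2.44, Ubd at 2.23 ± 0.847 and Krt19 at 1.32 ± 0.451, whose neighbouring ranges overlapped from Krt23 to Krt19. Krt7 was lowest of the detected genes at 0.381 ± 0.0853. On MCD, Krt8 came first at 757 ± 106, ahead of Krt18 at 721 ± 111 and Sqstm1 at 608 ± 63.9, and each neighbouring pair of these overlapped. Ubd (175 ± 61.4) and Vim (143 ± 95.7) overlapped as well. Krt23 (13.4 ± 4.29) stood clear of Krt19 (5.59 ± 3.33), which overlapped Krt7 (2.74 ± 1.48). Among all rows by mean TPM, Ubd moved from rank 8778 to rank 756 and Krt8 from rank 634 to rank 173.

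Krt8 (ENSMUSG00000049382), the type II keratin of hepatocytes, measured 273.6, 270.9 and 214.8 CPM on MCS (replicates 1 to 3, the order used throughout) and 759.7, 689.3 and 595.7 CPM on MCD. The lowest MCD library was 2.18 times the highest MCS library. The fitted difference was 1.43 ± 0.20, a fold of 2.69, and 89.2% of tested genes had a lower one. Krt18 (ENSMUSG00000023043), its type I partner, measured 279.6, 284.8 and 223.9 CPM on MCS and 512.1, 469.0 and 440.6 CPM on MCD. The groups were separate here too, by a smaller margin of 1.55 between the nearest libraries, and the difference was 0.85 ± 0.19, a fold of 1.80. Within each diet, replicate 3 was the lowest library for both keratins. Without replicate 3 of either diet, a setting added after the data were seen, the differences were 1.41 for Krt8 and 0.80 for Krt18. Leaving out any of MCS replicates 1 and 2 and MCD replicate 1 ended the call of Krt18, while Krt8 was called with any 1 library left out. The 10 hepatocyte markers summed to 87100, 87130 and 113500 CPM on MCS and 75650, 94340 and 56670 CPM on MCD. Most of each sum was Alb, and without it the other 9 summed to 33750, 36500 and 39800 CPM on MCS and 17600, 22500 and 13450 CPM on MCD. Of the 10, 3 fell and 7 did not pass (median log2 fold change −0.69), where 9.97% of all tested genes fell. In 7 of the 10 every MCD library lay below every MCS library, as in 21.3% of all tested genes. At an unadjusted edgeR p under 0.05, 7 were lower, and the share of all genes at that threshold was not counted. The direction depended on scaling for some of them. In mean TPM, Alb, Apob, Ass1, Ttr and Hnf4a were higher on MCD, while Apoa1, Asgr1, Cps1, Serpina1c and Tat were lower. In bulk RNA, fewer cells of a type and less RNA per cell cannot be told apart, and the part of the cell mix in the keratin values was not tested.

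The balance of the pair differed between the diets. The ratio of Krt8 to Krt18 in deposited TPM was 0.718, 0.698 and 0.704 on MCS and 1.09, 1.08 and 0.992 on MCD. The mean was 0.707 ± 0.0103 on MCS and 1.05 ± 0.0529 on MCD, 1.49 times as high, and no MCD library came near the MCS range. A ratio of 2 genes within a library does not depend on how libraries are scaled to each other. The counts gave the same 1.49, and leaving out any 1 library gave 1.47 to 1.53. As both genes were chosen with these values known, and 3 libraries against 3 allow no exact two-sided p below 0.10, no test is given. Krt8 and Krt18 together made up 98.8 ± 0.784% of the TPM of the 6 keratins on MCS and 98.6 ± 0.437% on MCD. The type II share of the 6 (Krt8 and Krt7) was 41.0 ± 0.557% on MCS and 50.7 ± 1.39% on MCD.

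**Figure D2:**
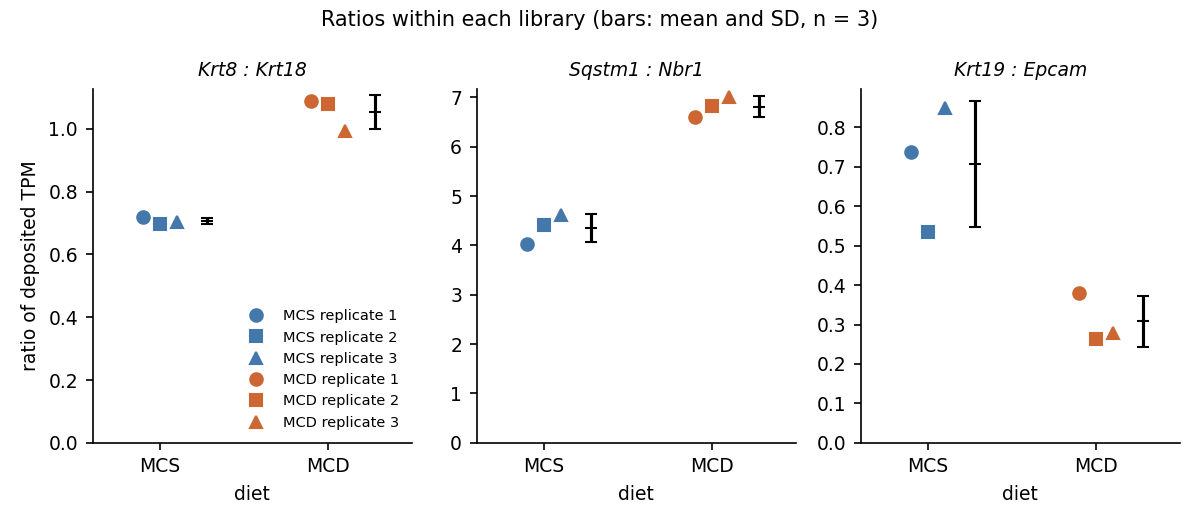
Ratios of deposited TPM in each library from a zero baseline, for Krt8 to Krt18, Sqstm1 to Nbr1 and Krt19 to Epcam; points are libraries and bars the mean and SD (n = 3). Krt8 to Krt18 and Sqstm1 to Nbr1 were higher in every MCD library (means 1.05 against 0.707 and 6.81 against 4.35), and Krt19 to Epcam was lower (0.308 against 0.707).

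The bile duct keratins were scarce in all libraries. Krt7 (ENSMUSG00000023039) measured 0.920, 0.907 and 0.662 CPM on MCS, from 12 to 16 counts, and 3.15, 1.77 and 3.94 CPM on MCD, from 39 to 113 counts. All MCD libraries were higher, and the difference was 1.83 ± 0.44. It was called in 2 of 6 fits with a library left out, those without MCD replicate 2 or 3, and not without replicate 3 of both diets. Krt19 (ENSMUSG00000020911), the type I keratin of ducts and progenitor cells, measured 1.38, 1.13 and 1.99 CPM on MCS and 4.77, 1.63 and 5.05 CPM on MCD. MCD replicate 2 lay inside the MCS range, and the difference of 1.34 ± 0.48 was not called by edgeR or limma-voom. It was called by DESeq2 and, in edgeR, without MCD replicate 2. Krt7 and Krt19 were both lowest in replicate 2 among the MCD libraries.

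Markers of cholangiocytes, the cells that line bile ducts, were also mostly higher on MCD. Over all tested genes 14.8% rose, with a median log2 fold change of 0.01. Of 12 listed markers besides the keratins, 11 were tested, 10 rose and 1 did not pass (median log2 fold change 2.78). Their summed level was 65.5 to 94.7 CPM on MCS and 412.9, 235.7 and 650.0 CPM in MCD replicates 1 to 3. Replicate 2 was the lowest MCD library for this sum. It was also lowest for the macrophage, stellate, endothelial and lymphocyte marker sums, so that order was not particular to duct markers. Osteopontin (Spp1) made up most of the sum on MCD, at 317.6, 175.3 and 521.8 CPM, and without it the other 11 summed to 31.6 to 37.5 CPM on MCS and 95.4, 60.4 and 128.2 CPM on MCD. Epcam, an adhesion molecule of duct cells, rose from a mean of 2.34 to 13.6 CPM (edgeR adjusted p = 0.00302). The ratio of Krt19 to Epcam in TPM, chosen after the values were seen, was 0.738, 0.535 and 0.848 on MCS and 0.381, 0.264 and 0.279 on MCD. Krt7 to Epcam overlapped between the diets, at 0.209 ± 0.0508 and 0.172 ± 0.0715. Of 6 listed mesothelial markers 4 were tested, 0 rose and 2 fell, where 9.97% of all tested genes fell. Their sum was 6.96, 2.95 and 8.33 CPM on MCS and 3.55, 2.62 and 3.34 CPM on MCD. The part of duct or mesothelial cells in the keratin values was not tested.

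Krt23 (ENSMUSG00000006777), a small type I keratin of unsettled function, measured 1.38, 3.40 and 6.51 CPM on MCS and 8.27, 8.91 and 11.0 CPM on MCD. Its MCS libraries differed by 4.72 times from lowest to highest, the widest MCS spread of the 8 genes, while the MCD libraries differed by 1.33 times. The difference was 1.32 ± 0.46 and was not called by edgeR, though it was by DESeq2 and limma-voom. It was 1.99 without MCS replicate 3, where edgeR called it, and 0.91 without MCS replicate 1, where edgeR did not. Krt20 (ENSMUSG00000035775), the type I keratin of gut epithelium, had 0 counts in the MCS libraries and 1, 2 and 3 counts in the MCD libraries. No library exceeded the floor of 3 counts (0.104 to 0.227 CPM), so no fold is given. Among 43 other keratin genes in the table, 30 had 0 counts in every library, and 1, Krt80, was tested. Krt80, a type II keratin, measured 0.230, 0.378 and 0.827 CPM on MCS and 1.21, 1.13 and 2.93 CPM on MCD (1.86 ± 0.63, edgeR adjusted p = 0.0603).

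Vim (ENSMUSG00000026728) encodes the filament protein of mesenchymal cells, endothelium and leukocytes, which hepatocytes normally lack. It measured 24.3, 18.1 and 28.9 CPM on MCS and 116.7, 75.6 and 209.4 CPM on MCD. Every MCD library was at least 2.62 times the highest MCS library, with a spread of 2.77 times among the MCD libraries, and the difference was 2.49 ± 0.38. Without MCD replicate 3, the highest library, it was 2.01. The summed macrophage, stellate, endothelial, cholangiocyte and lymphocyte markers all followed the order of Vim among the MCD libraries. Macrophage markers summed to 1786, 1373 and 3244 CPM and stellate and fibroblast markers to 1033, 437.5 and 1995 CPM in MCD replicates 1 to 3. On MCS these sums were 371 to 493 and 208 to 370 CPM. Of 10 macrophage markers 9 rose and 1 fell, and of 11 stellate and fibroblast markers 5 rose and 6 did not pass. Over all tested genes 14.8% rose and 9.97% fell. The 7 endothelial markers did not pass, also at an unadjusted edgeR p under 0.05, where the share of all genes was not counted. The endothelial sum was 85.8, 119.1 and 306.1 CPM on MCS and 63.3, 49.4 and 240.5 CPM on MCD. Like Vim, it was highest in replicate 3 of each diet. The share of each cell type in the Vim values was not tested.

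**Figure D3:**
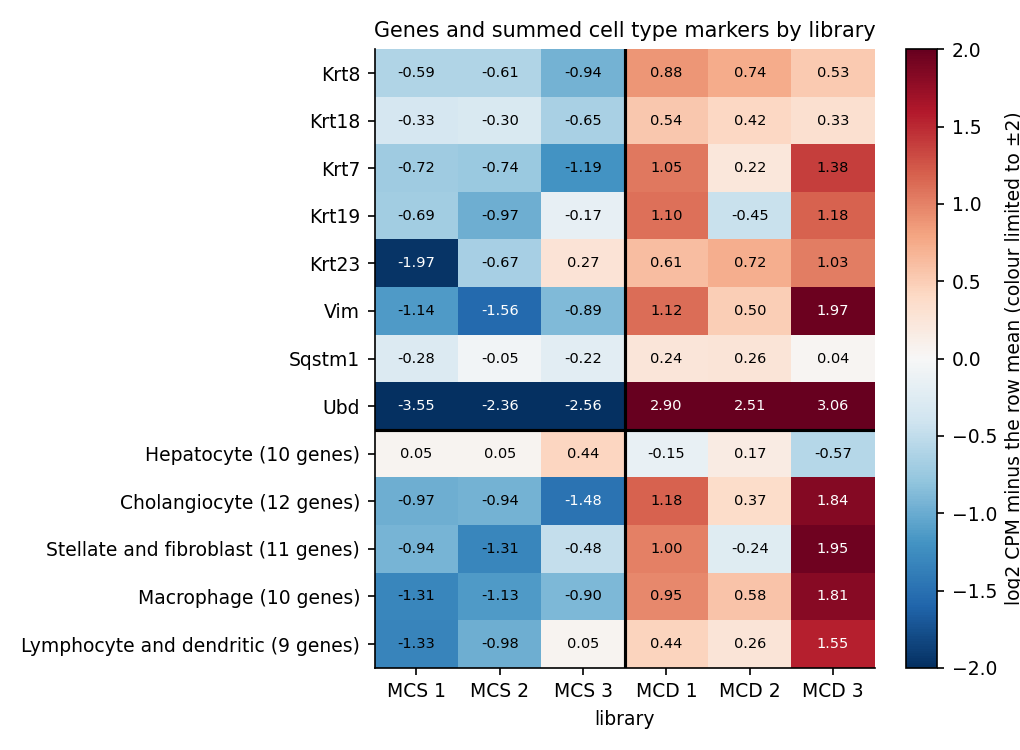
Log2 CPM minus the row mean in each library (columns) for 8 genes and, below the line, for the summed CPM of 5 cell type marker lists; red is above and blue below the row's mean, with the values printed. Vim and the macrophage, stellate, cholangiocyte and lymphocyte sums peak in MCD replicate 3 (1.97, 1.81, 1.95, 1.84 and 1.55). There Krt8 is at its lowest MCD value (0.53) and the hepatocyte sum is lowest (−0.57).

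Ubd (ENSMUSG00000035186) had the largest difference of the 8 tested genes. It measured 0.863, 1.96 and 1.71 CPM on MCS, from 15 to 31 counts, and 75.6, 57.4 and 84.4 CPM on MCD, from 1268 to 2422 counts. The lowest MCD library was 29.2 times the highest MCS library. The fitted difference was 5.60 ± 0.29, a fold of 48.4 and rank 29 among the 12599 tested genes. It lay between 5.30 and 5.79 with any 1 library left out. Lymphoid and dendritic cells also make FAT10. The 9 listed markers of those cells summed to 5.47 to 14.2 CPM on MCS and 16.5 to 40.3 CPM on MCD. Of 7 tested 3 rose, where 14.8% of all tested genes rose. The part of those cells in the Ubd values was not tested.

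Other genes of the FAT10 pathway differed less. The median log2 fold change was −0.13. Of 8 tested, 2 rose, 1 fell and 5 did not pass, where 14.8% of all tested genes rose and 9.97% fell. The counts of the list depend on scaling: with library size alone 4 rose and 0 fell, and on the TPM scales 5 rose and 0 fell. Uba6, the enzyme that activates FAT10, rose from 2.11 ± 0.388 to 4.22 ± 1.03 CPM (0.999 ± 0.32, edgeR adjusted p = 0.0495). Ube2z, its conjugating enzyme, had a difference of −0.11 ± 0.12 (adjusted p = 0.519), and Nub1, which carries FAT10 to the proteasome, of −0.16 ± 0.12 (adjusted p = 0.343). The immunoproteasome subunit Psmb10 rose by 0.42 ± 0.12 (adjusted p = 0.0373). The partner subunits Psmb8 and Psmb9 had differences of 0.09 ± 0.14 and −0.15 ± 0.14 (adjusted p = 0.650 and 0.452). Psmd4, a ubiquitin receptor of the proteasome, fell by 0.56 (edgeR adjusted p = 0.0348). Its difference was only −0.02 with library size alone (edgeR adjusted p = 0.871) and 0.10 on the TPM scale. Each of the 3 calls held in 1 of 6 fits with a library left out: Psmb10 without MCD replicate 3, and Uba6 and Psmd4 without MCD replicate 2. The other fits gave adjusted p = 0.0763 to 0.141 for Psmb10, 0.0906 to 0.140 for Uba6 and 0.0541 to 0.134 for Psmd4. With no count filter both rises were lost (adjusted p = 0.0573 for Psmb10 and 0.0579 for Uba6). Psmb10 did not pass by DESeq2 (adjusted p = 0.0626), nor Uba6 by limma-voom (adjusted p = 0.0652).

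Sqstm1 (ENSMUSG00000015837) was among the most abundant of the 9 genes on both diets and differed least. It measured 426.1, 499.4 and 444.4 CPM on MCS and 609.4, 620.7 and 532.4 CPM on MCD. All MCD libraries were higher, by 1.07 times between the nearest libraries, and the difference was 0.36 ± 0.19, which was not called. The size of the difference depended on the scaling. With library size alone it was 0.91, where the median of all tested genes was 0.57. In the authors' deposited table Sqstm1 had a log2 fold change of 1.04. Krt18 was 1.41 with library size alone and 1.53 in the authors' deposited table. The direction of all 8 genes was the same under every scaling tried.

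**Figure D4:**
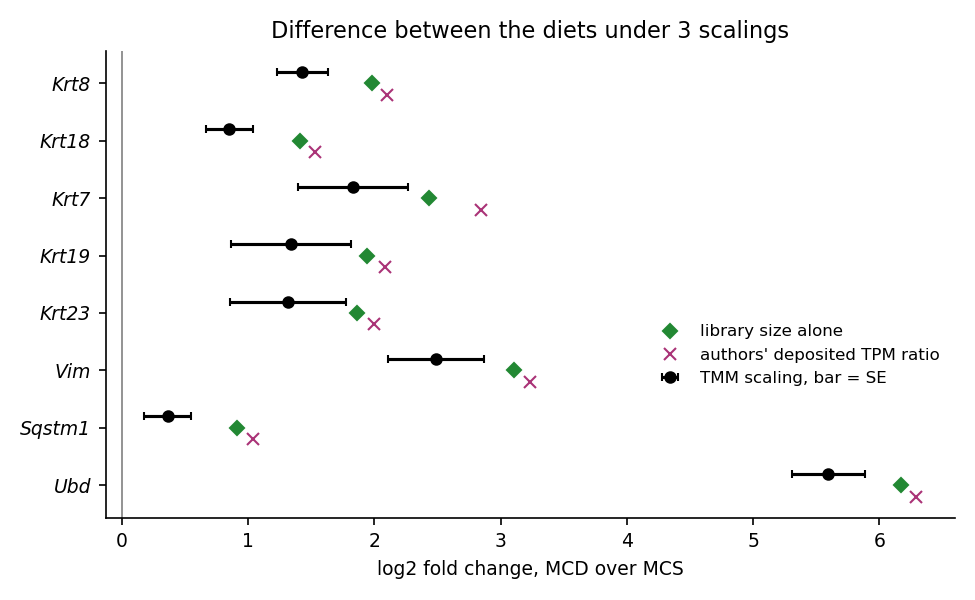
Log2 fold changes of MCD over MCS for 8 genes with TMM scaling (black, bar = SE), with library size alone (green) and as the ratio of mean TPM in the authors' deposited table (purple). All lie above 0, and Sqstm1 moves from 0.36 to 0.91 and 1.04 where Ubd moves from 5.60 to 6.17 and 6.29.

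Ratios within a library avoid that dependence. Sqstm1 to Nbr1, a related autophagy receptor, was 4.04, 4.41 and 4.61 in TPM on MCS and 6.60, 6.83 and 7.01 on MCD, 1.57 times as high. Sqstm1 to Map1lc3b, the autophagosome protein that p62 binds, was 2.51 ± 0.233 on MCS and 4.44 ± 0.508 on MCD. Neither ratio overlapped between the diets, and both were chosen after the values were seen. With TMM scaling Nbr1 and Map1lc3b had differences of −0.30 ± 0.16 and −0.40 ± 0.17, neither called. The ratios therefore hold the change of these genes as well as that of Sqstm1.

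Autophagy and ubiquitin-binding genes as a list lay slightly lower relative to the bulk of genes. Of 22 tested, 0 rose and 4 fell by edgeR and 18 did not pass, where 14.8% of all tested genes rose and 9.97% fell. The median log2 fold change was −0.31, against 0.01 over all tested genes. At an unadjusted edgeR p under 0.05, 0 were higher and 10 lower, but the share of all genes at that threshold was not counted. DESeq2 and limma-voom also called 0 up and 4 down. That direction depends on scaling: with library size alone 7 rose and 0 fell. Prkcz, an atypical protein kinase C that binds p62, and Ulk1, the kinase that starts autophagy, fell from 43.1 ± 5.15 to 23.4 ± 5.57 CPM and from 86.4 ± 16.5 to 50.8 ± 4.23 CPM. Their differences were −0.88 ± 0.19 and −0.77 ± 0.17 (edgeR adjusted p = 0.0129 and 0.0138), and −0.35 and −0.21 with library size alone (adjusted p = 0.0738 and 0.250). Leaving out MCS replicate 2 took Prkcz to an adjusted p = 0.0600. Leaving out any of MCS replicates 1 and 2 and MCD replicate 1 took Ulk1 to between 0.0528 and 0.0639. The list numbered 10 falls without MCD replicate 2, 1 without MCS replicate 1 or MCD replicate 1 and 0 without MCS replicate 2. Nbr1 and optineurin (Optn), receptors like p62, had differences of −0.30 ± 0.16 and −0.15 ± 0.16 (adjusted p = 0.194 and 0.511).

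The list of ubiquitin genes, chaperones and other genes linked to protein inclusions showed 1 rise and 2 falls among 16 tested (median −0.32). Over all tested genes 14.8% rose and 9.97% fell. Tgm2, the transglutaminase that crosslinks keratins, rose from 159.9 ± 4.76 to 298.8 ± 23.0 CPM (0.90 ± 0.16, edgeR adjusted p = 0.00540) and passed with any 1 library left out. The cochaperone Dnajb1 fell from 31.7 ± 9.69 to 18.6 ± 0.935 CPM (−0.77 ± 0.21, adjusted p = 0.0291). With library size alone its difference was −0.21 and did not pass (adjusted p = 0.461). It passed without MCS replicate 1 or MCD replicate 2, and the other 4 fits with a library left out gave adjusted p = 0.0609 to 0.103. The small heat shock proteins Hspb1 and Cryab had differences of 1.08 ± 0.38 and 1.03 ± 0.43 (adjusted p = 0.0808 and 0.114). The inducible Hsp70 gene Hspa1b was uneven among controls, at 21.6, 77.7 and 14.4 CPM on MCS against 14.4, 14.6 and 11.8 CPM on MCD.

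Filament linkers and junction plaque genes gave 4 rises and 0 falls among 14 tested (median 0.32), where 14.8% of all tested genes rose and 9.97% fell. At an unadjusted edgeR p under 0.05 there were also 0 falls, but the share of all genes at that threshold was not counted. DESeq2 and limma-voom gave 4 and 3 rises and 0 falls, and 1 gene fell without replicate 3 of either diet. Periplakin (Ppl), a linker between keratins and cell junctions, rose from 15.0 ± 4.03 to 44.6 ± 7.53 CPM (1.58 ± 0.22, edgeR adjusted p = 0.00216) and passed with any 1 library left out. Its relative envoplakin (Evpl) rose from 0.509 ± 0.153 to 1.90 ± 0.515 CPM (adjusted p = 0.0207), but not without MCS replicate 1, 2 or 3 or MCD replicate 1 (adjusted p = 0.0546 to 0.0978). Plectin (Plec), a crosslinker of filaments, had a difference of −0.15 ± 0.15 (adjusted p = 0.487), and desmoplakin (Dsp) of 0.28 ± 0.18 (adjusted p = 0.290). The list numbered 10 rises with library size alone, and 1 without MCS replicate 1, 2 or 3 or MCD replicate 1 and 2 without MCD replicate 2.

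Enzymes and adaptors that act on keratins gave 4 rises and 1 fall among 14 tested (median −0.00), where 14.8% of all tested genes rose and 9.97% fell. Ywhah, a phosphoserine adaptor of the family that binds phosphorylated Krt18, rose from 45.1 ± 1.88 to 99.7 ± 9.18 CPM (1.14 ± 0.13, edgeR adjusted p = 0.00110) and passed with any 1 library left out. Mapk3, the kinase ERK1, rose by 0.70 ± 0.14 (adjusted p = 0.00865; adjusted p = 0.0551 without MCS replicate 2). Prkce, a protein kinase C that phosphorylates keratins, fell by 0.58 (adjusted p = 0.0277), but had a difference of −0.02 with library size alone and 0.07 on the log2(TPM + 1) scale. Prkce did not pass without MCS replicate 1, 2 or 3 or MCD replicate 1 (adjusted p = 0.0595 to 0.108). Of 8 other intermediate filament genes tested, 1 rose, lamin A/C (Lmna), from 39.7 ± 3.75 to 74.2 ± 5.27 CPM (0.90 ± 0.13, adjusted p = 0.00269; passed with any 1 library left out). Desmin (Des) and nestin (Nes), filaments of muscle-like and progenitor cells, had differences of 0.88 ± 0.40 and 1.56 ± 0.89 (adjusted p = 0.139 and 0.237).

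**Figure D5:**
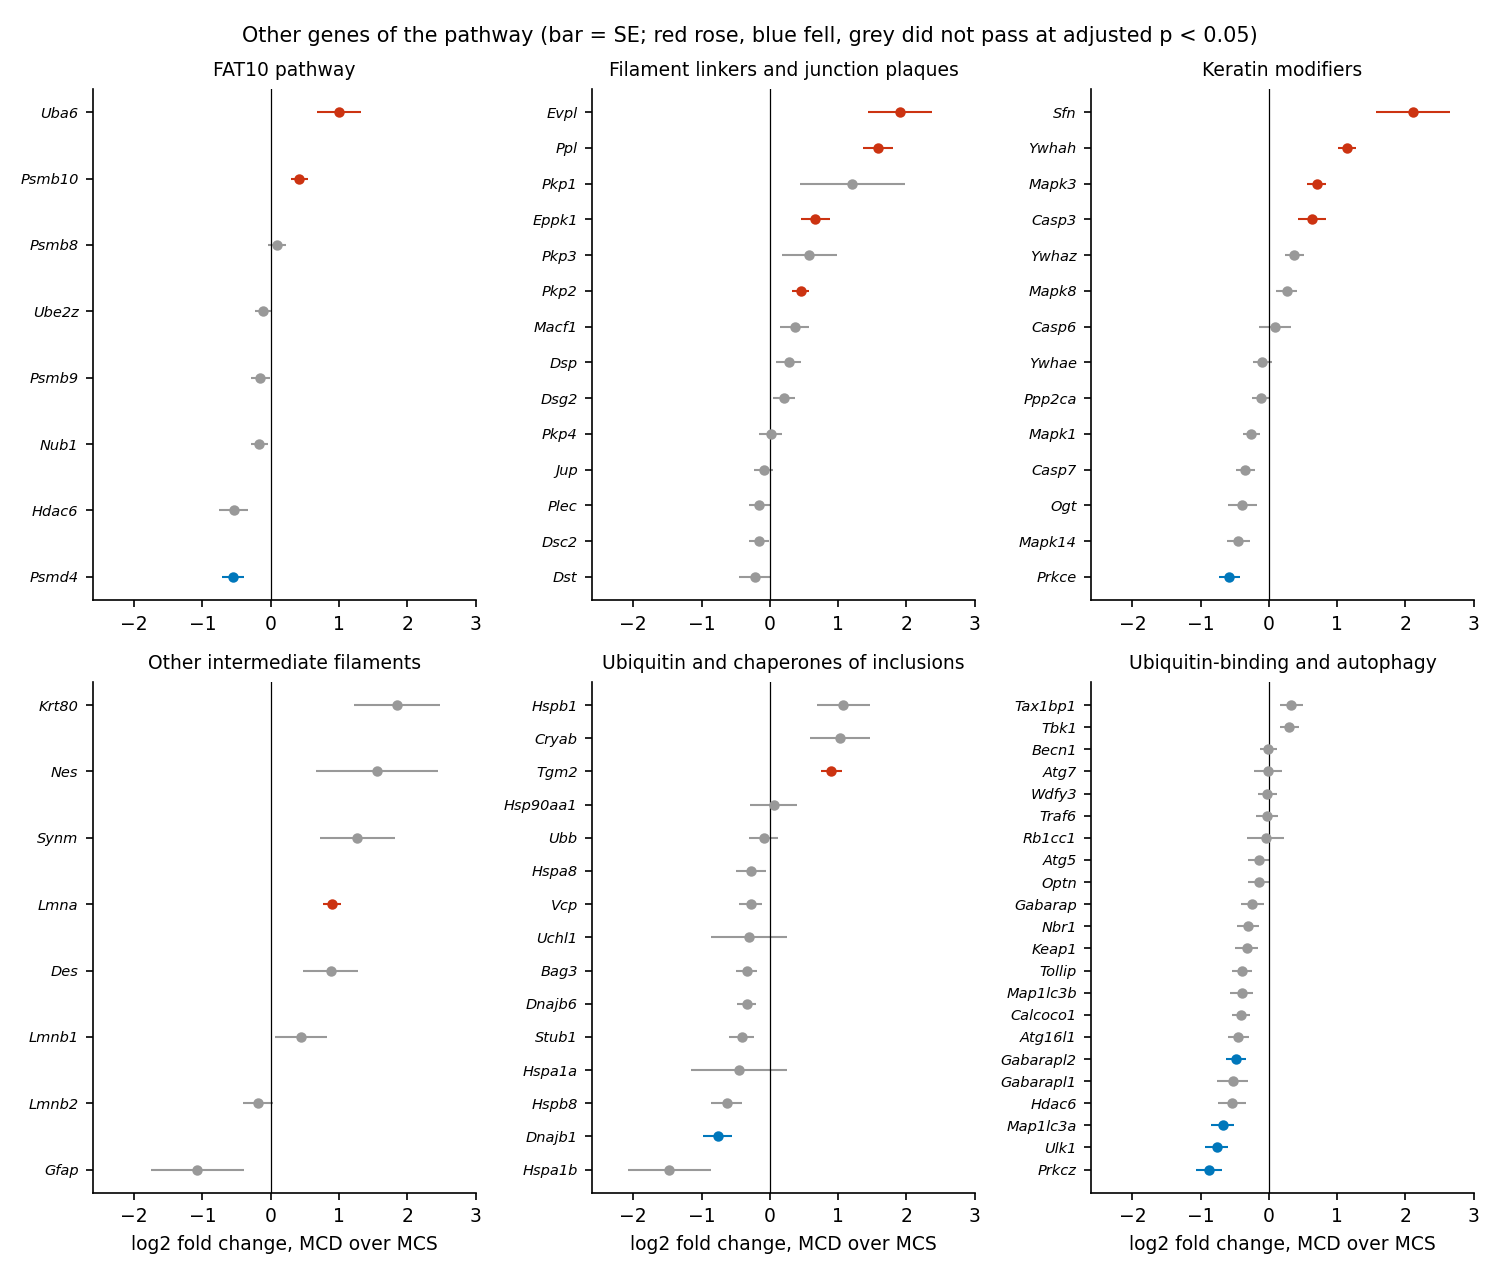
Log2 fold changes of MCD over MCS with SE bars for 6 lists of related genes (Hdac6 is in 2 of them, and 1 gene is not shown); red genes rose, blue genes fell and grey genes did not pass at adjusted p under 0.05. Periplakin, Ywhah, Tgm2 and Lmna are among the red genes, and no gene of the autophagy list is red.

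Over these 6 lists together, 12 of 81 distinct tested genes rose and 8 fell, 14.8% and 9.88%, close to the 14.8% and 9.97% of all tested genes.

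The genes whose profile over the 6 libraries was closest to each member were found by the root-mean-square distance of log2 CPM, each gene centred on its own mean, among the 8988 genes averaging 5 CPM or more. The profiles share the same libraries and the diet difference, and the distance is a description. Closest to Krt8 was Srxn1, the sulfiredoxin that repairs oxidised peroxiredoxins, at 0.05 log2 units (median over all genes 0.80), followed by the major vault protein Mvp at 0.12 and Tmem237 at 0.12. Closest to Krt18 were the small GTPase Rhou at 0.06, Lmna at 0.07 and Fkbp1a at 0.07. Krt8 and Krt18 lay 0.29 apart from each other, and Krt18 and Sqstm1 0.27. These distances include the size of the diet difference, which for Krt18 (0.85) lay between those of Sqstm1 (0.36) and Krt8 (1.43). Within each diet Krt8 and Krt18 were both lowest in replicate 3, while Sqstm1 was lowest there on MCD only. Vim was closest to the leukocyte genes Arhgap30 and Lair1 and the scaffold Iqgap1, at 0.10 to 0.11. Krt7 was closest to Src, Rhoc and Mcm4 at 0.12 to 0.15. Krt19 was closest to Fbln5, the stellate cell enzyme Lrat and Ccbe1 at 0.10 to 0.18. Sqstm1 was closest to Nt5c, Acp5 and Hps1 at 0.05 log2 units each. The medians over all genes were 2.85 for Ubd and 1.06 for Krt23, against 0.35 for Sqstm1, so distances to nearest genes are not compared between members. The nearest to Ubd was the myeloid lectin Clec4d at 0.44, then Fndc10 and Gstm3 at 0.47 and 0.51. The nearest to Krt23 was Cyp3a11 at 0.21, then Abcc4 and Plk2 at 0.31 and 0.34.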

How the data were processed

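Liver polyA RNA of 6 libraries was grouped by the diet in the sample titles, 3 MCS and 3 MCD. The submitters' processing notes name the GRCm39 build and RSEM, StringTie 1.3.1, HISAT2 2.1.0, Bowtie2 2.2.8 and fastp 0.18.0, without saying what each did. How strand was handled was not given in the sources used here. The deposited table holds estimated counts written as whole numbers (64 counts of 0 stand beside a TPM above 0), and TPM values, per the file headers. It also holds the authors' mean TPM, log2 fold change, p-value and false discovery rate, whose test was not given in the sources used here.

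Counts were tested with edgeR 4.0.16 (R 4.3.3): filterByExpr with a minimum count of 10, TMM scaling, a robust quasi-likelihood fit with diet as the only term, and Benjamini-Hochberg adjustment over 12599 genes with a threshold of 0.05. The SE was taken as the absolute log2 fold change over the root of the F statistic. Alternatives used DESeq2 1.42.0, limma 3.58.1 and other scalings, and the scripts were tested on simulated data. TMM sets differences relative to the bulk of genes, while TPM and library size alone shift the median gene upward on MCD. Total counts of 16615469 to 21322771 put 3 counts at 0.104 to 0.227 CPM; floors cover counting error only. The members and the gene lists were chosen with earlier results of these data known. The rule for naming genes took all members, the 2 called genes of smallest p in each direction per list and the 3 closest profiles. Other genes of a list were named after their values were seen, and 1 gene of the lists is not reported here by name.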

Additional observations from a re-analysis of the deposited data

How the results depend on the processing

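The 8 tested genes kept their direction under all 15 alternatives, and 104 of 120 values moved by less than 1 SD of the replicates; the 16 others came with library size alone or on a TPM scale. The genes called numbered 3117 (59.7% up), and 5443 with library size alone (93.6% up), 5636 on log2(TPM + 1) and 5921 on log2(TPM + 0.1). In the same 3 settings 8, 8 and 8 members were called, against 5, and 37, 40 and 41 of the pathway genes, against 20. With 1 library left out, 1347 to 4435 genes, 3 to 6 members and 5 to 31 pathway genes were called. Psmd4 had a log2 fold change of 0.097 on both TPM scales, Prkce of 0.069 and 0.087, and Gabarapl2 of 0.052 with library size alone and 0.17 and 0.18 on the TPM scales. The cause was not tested. Same-numbered replicates were not shown to be paired (correlations of 0.06, 0.15 and 0.25 for numbers 1 to 3, and not every library correlated best with its own number). With a replicate block 3283 genes, 7 members (Krt19 and Krt23 in addition) and 23 pathway genes were called, while Psmb10, Uba6 and Prkce did not pass (adjusted p = 0.0626, 0.0630 and 0.0505). For Krt7, Krt19 and Krt20, and for Ubd on MCS, depth limits precision, with counts of at most 36 in the MCS libraries.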
